A study of Mus musculus with 6 samples.

Results

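Macrophage and microglia genes were described in HT22, a mouse neuronal cell line of hippocampal origin that grows without limit. The set holds 35 genes, chosen by symbol, and all 35 were found among the 26595 genes of the expression table. IL-17 libraries (n = 3) came from wild-type HT22 cells exposed to interleukin 17 (IL-17), a cytokine made mainly by T cells, and control libraries (n = 3) from wild-type HT22 cells that were given no special treatment. Both groups were grown in DMEM with serum and antibiotics, and the IL-17 dose, the form of the cytokine and the length of exposure are not given in the sources used here. By its title, the study concerns IL-17 and the JAK1-STAT6 pathway. Levels are given as FPKM (fragments per kilobase of transcript, scaled to the number of mapped fragments) from poly(A) RNA. Nothing says that the libraries of a group came from separate cultures; p-values therefore reflect the spread between these libraries alone, and that spread may be technical.

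Macrophages and microglia, the resident macrophages of the brain, are phagocytes of the blood lineage. They take up particles through Fc, scavenger and complement-binding receptors, signal through short adaptor proteins with ITAM motifs, and break down what they swallow in lysosomes. Lysosomal enzymes are made by almost every cell type, whereas the receptors, their adaptors and the transcription factor PU.1 are largely kept to blood cells. Genes such as Tmem119, P2ry12, Siglech and Sall1 are used in brain to tell microglia from other macrophages.

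FPKM summed to between 365534 and 383093 per library. The table holds no counts, so the depth is not known directly. For genes annotated with 1 transcript, the product of FPKM and length in kilobases piled up at 0.057 to 0.063 and at 0.029 to 0.031. Where fragment numbers are given they assume that the upper of these steps marks 1 fragment. Markers of other tissues differed between libraries. The summed level of 11 lung epithelial genes was 74.8, 64.3 and 168.7 FPKM in IL-17 libraries 1, 2 and 3, against 5.54, 4.94 and 61.9 FPKM in control libraries 1, 2 and 3. The sum of 16 liver genes was 189.1, 52.9 and 71.4 FPKM in IL-17 libraries, against 183.7, 159.5 and 118.7 FPKM in controls. IL-17 library 1 and control library 3 stood apart from the rest of their own group, in the liver sum for IL-17 library 1 and in the lung sum for control library 3. The highest lung sum was in IL-17 library 3. Results that rest on IL-17 library 1 and control library 3 are given with and without them. Neuronal markers were scarce: of 15, 12 were found in the table and 2 averaged at least 1 FPKM, Tubb3 at 12.8 FPKM being the highest. Mesenchymal markers were abundant, with 14 of 15 at 1 FPKM or more.

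The 35 genes covered almost the whole range of transcript levels. Of them, 21 averaged at least 1 FPKM over the 6 libraries, 15 at least 5 FPKM and 4 at least 100 FPKM, while 5 averaged under 0.1 FPKM. Over all genes in the table, 42.6% averaged at least 1 FPKM. The 7 lysosomal, lysozyme and galectin genes all averaged 1 FPKM or more, with a median of 122.0 FPKM. Of the 28 leukocyte and microglial genes 14 did so, with a median of 0.958 FPKM. In bulk RNA, a level cannot tell a small number of cells with much transcript from all cells with little.

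**Figure D1:**
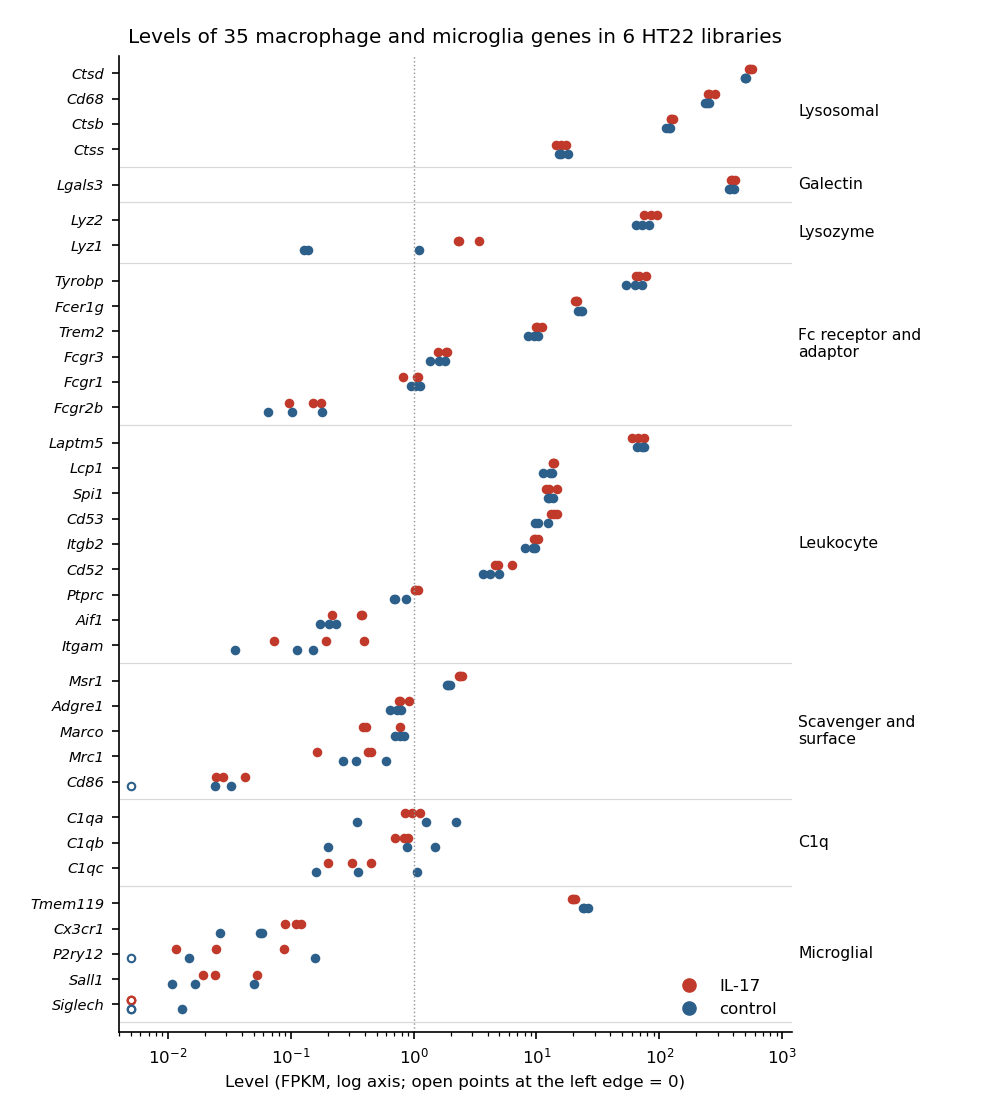
Level of each of the 35 genes in each library, in FPKM on a log axis, with IL-17 libraries (red, upper row of each gene) and control libraries (blue, lower row), grouped by role; open points at the left edge stand for 0 and the dotted line for 1 FPKM. Most lysosomal genes lie above 100 FPKM, leukocyte genes run from Laptm5 down to Itgam, and 4 of the 5 microglial genes lie below 0.2 FPKM in all 6 libraries.

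Among the lysosomal genes, Ctsd, the aspartic protease cathepsin D (chromosome 7, 142375911 to 142388038, minus strand; GRCm38 here and below), had the highest level of the set, ranked 99 among all genes. It stood at 567.8, 543.5 and 538.3 FPKM in IL-17 libraries, against 505.0, 499.1 and 496.5 FPKM in controls. Cd68, a heavily glycosylated protein of the lysosomal membrane long used to stain macrophages (chromosome 11, 69664213 to 69666153, minus strand), was at 284.5, 251.9 and 247.1 FPKM in IL-17 libraries and 236.5, 253.5 and 246.2 FPKM in controls. Ctsb, the cysteine protease cathepsin B, was at 123.9, 125.0 and 128.1 FPKM in IL-17 libraries and 113.2, 121.5 and 120.2 FPKM in controls; its gene overlaps Fdft1, which lies on the opposite strand and averaged 42.2 FPKM. The groups did not overlap for Ctsd and Ctsb and overlapped for Cd68. Ctss, cathepsin S, a protease most typical of antigen-presenting cells, was the lowest of the 4, at 14.5, 16.0 and 17.5 FPKM in IL-17 libraries and 15.2, 18.1 and 15.7 FPKM in controls. Lgals3, galectin-3, a sugar-binding protein of macrophages and of many other cells, was at 409.7, 391.4 and 381.5 FPKM in IL-17 libraries and 403.1, 367.8 and 377.5 FPKM in controls, with overlapping groups.

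Other lysosomal genes were widely present, most of them at lower levels than Ctsd, Cd68, Ctsb and Lgals3. Of 42 further lysosomal genes, 40 averaged at least 1 FPKM, with a median of 17.3 FPKM. The highest were Ctsk, the collagen-degrading cathepsin K, at 409.2 ± 56.7 FPKM in IL-17 libraries and 366.9 ± 46.0 FPKM in controls (SD, n = 3 each), and Psap, which encodes the saposin precursor, at 392.03 ± 19.6 FPKM in IL-17 libraries and 371.7 ± 18.5 FPKM in controls. Ctsd and Cd68 are shown by their promoter windows, 250 bases before to 50 after the transcription start (RefSeq, GRCm38.p6), because Ctsd is the highest of the broadly expressed lysosomal genes and Cd68 the highest of those used as macrophage markers. Capitals mark, on either strand, GAGGAA (the core of the PU box, bound by PU.1 and related ETS factors) and CACGTG (an E-box). The longer form TCACGTGA, the core of the CLEAR element found near lysosomal genes, contains the E-box. 
Ctsd (chr7:142387778-142388077, minus strand): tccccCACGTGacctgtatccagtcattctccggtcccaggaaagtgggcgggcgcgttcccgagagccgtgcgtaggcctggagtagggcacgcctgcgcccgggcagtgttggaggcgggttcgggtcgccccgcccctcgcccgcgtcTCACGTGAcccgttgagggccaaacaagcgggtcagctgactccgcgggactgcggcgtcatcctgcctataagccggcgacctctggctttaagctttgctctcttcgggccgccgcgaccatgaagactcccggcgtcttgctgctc
Cd68 (chr11:69666121-69666420, minus strand): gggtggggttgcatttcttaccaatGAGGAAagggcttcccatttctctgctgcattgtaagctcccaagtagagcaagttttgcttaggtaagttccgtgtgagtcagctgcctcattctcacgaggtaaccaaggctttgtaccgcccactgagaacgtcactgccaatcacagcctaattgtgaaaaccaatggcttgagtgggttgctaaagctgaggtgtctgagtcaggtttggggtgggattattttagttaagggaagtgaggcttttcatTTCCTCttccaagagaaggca
Ctsd held 2 CACGTG matches, 1 of them within TCACGTGA, and no GAGGAA. Cd68 held 2 GAGGAA matches and no CACGTG. TCACGTGA was found in 0.974% of 32851 promoter windows, CACGTG in 7.15% and GAGGAA in 28.3%. A match describes the letters of the window and is not evidence of a bound factor.

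**Figure D2:**
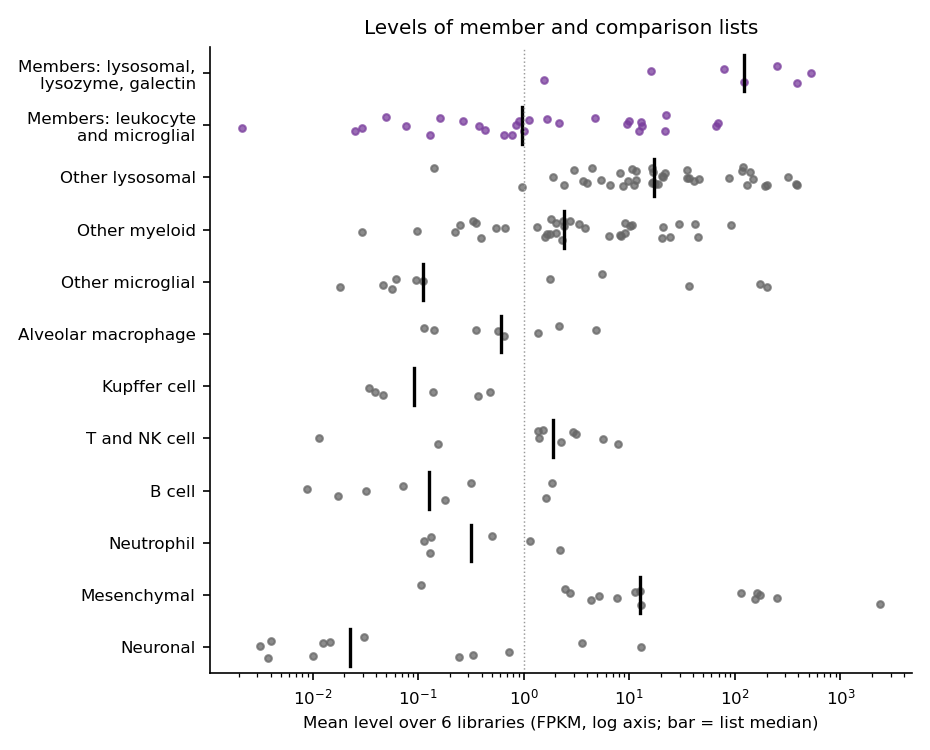
Mean level over the 6 libraries of each gene (points, FPKM on a log axis) for the 2 parts of the set (purple) and for lists of other cell types and functions (grey), with the median of each list as a bar and 1 FPKM as a dotted line. The other lysosomal genes centre on 17.3 FPKM and the other myeloid genes on 2.40 FPKM, and the Kupffer cell and neuronal lists lie mostly below 1 FPKM.

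Adaptors and receptors that in textbook use are kept to blood cells were present at very unequal levels. Tyrobp, the ITAM adaptor also called DAP12 (chromosome 7, 30413760 to 30417585, plus strand), was at 64.8, 67.7 and 77.2 FPKM in IL-17 libraries and 72.1, 53.8 and 63.2 FPKM in controls. Fcer1g, the common gamma chain that Fc receptors signal through, was at 21.5, 21.0 and 20.6 FPKM in IL-17 libraries, below every control at 23.6, 21.9 and 23.1 FPKM. Trem2, the lipid receptor that pairs with Tyrobp, was at 9.98, 10.2 and 11.1 FPKM in IL-17 libraries and 10.3, 8.57 and 9.59 FPKM in controls. The Fc receptors themselves were far lower than the adaptors. Fcgr3, a low-affinity activating receptor for IgG, was at 1.86, 1.58 and 1.85 FPKM in IL-17 libraries and 1.35, 1.63 and 1.82 FPKM in controls. Fcgr1, the high-affinity receptor, was at 1.06, 0.824 and 1.09 FPKM in IL-17 libraries and 1.12, 1.03 and 0.959 FPKM in controls. Fcgr2b, the inhibitory receptor, ran from 0.0961 to 0.176 FPKM in IL-17 libraries and from 0.0660 to 0.182 FPKM in controls. Tyrobp, Trem2, Fcgr3, Fcgr1 and Fcgr2b all had overlapping groups. The longest transcripts of Fcgr2b and Fcgr3 were identical at 82.4% of aligned bases, and how the authors assigned reads that match both is not given in the sources used here.

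Of the leukocyte genes, 6 of 9 averaged at least 1 FPKM. Laptm5, a lysosomal membrane protein of blood cells (chromosome 4, 130913125 to 130936141, plus strand), led with 74.5, 66.7 and 60.2 FPKM in IL-17 libraries and 65.6, 72.6 and 75.1 FPKM in controls. Spi1, which encodes PU.1 (chromosome 2, 91082390 to 91115756, plus strand), the transcription factor that directs the myeloid lineage, was at 14.7, 12.5 and 12.02 FPKM in IL-17 libraries and 12.4, 12.6 and 13.7 FPKM in controls. Both had overlapping groups. Lcp1, the actin-bundling L-plastin, was at 13.7, 13.6 and 13.9 FPKM in IL-17 libraries, above all controls at 11.4, 12.99 and 13.4 FPKM. Itgb2, the beta chain of leukocyte integrins, was at 9.76, 9.61 and 10.3 FPKM in IL-17 libraries and 8.004, 9.45 and 9.70 FPKM in controls, with overlapping groups. Its partner Itgam, the alpha chain CD11b, was about 59 times lower on average and had 0.195, 0.0726 and 0.395 FPKM in IL-17 libraries, against 0.0354, 0.151 and 0.113 FPKM in controls. Itgam shares its span with Gm49368, a gene model on the same strand, at a mean of 0.159 FPKM, and reads that both could claim make the Itgam level uncertain.

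The remaining leukocyte genes were Cd53, Ptprc, Cd52 and Aif1. Cd53, a tetraspanin of blood cells (chromosome 3, 106759921 to 106790149, minus strand), was at 13.2, 14.0 and 14.6 FPKM in IL-17 libraries, against 12.4, 10.3 and 9.74 FPKM in controls, with no overlap. Ptprc, the leukocyte common antigen CD45 (chromosome 1, 138062861 to 138175708, minus strand), was at 1.03, 1.02 and 1.08 FPKM in IL-17 libraries, above all controls at 0.701, 0.694 and 0.867 FPKM. Cd52, a small GPI-anchored glycoprotein of leukocytes, was at 4.85, 4.57 and 6.28 FPKM in IL-17 libraries and 3.67, 4.23 and 4.94 FPKM in controls, with overlapping groups. Aif1, the calcium-binding protein IBA1 used to stain microglia, ran from 0.218 to 0.382 FPKM in IL-17 libraries and from 0.173 to 0.235 FPKM in controls.

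Of 36 further genes of blood and myeloid cells, 27 averaged at least 1 FPKM. Arhgdib, a gene abundant in blood cells, was the highest at 96.1 ± 5.49 FPKM in IL-17 libraries and 87.4 ± 2.09 FPKM in controls (SD, n = 3 each). Coro1a, an actin regulator of leukocytes, was at 45.1 ± 1.65 FPKM in IL-17 libraries and 44.2 ± 0.904 FPKM in controls. Csf1r, the receptor on which macrophages depend for survival, was at 19.4 ± 0.443 FPKM in IL-17 libraries and 21.5 ± 1.06 FPKM in controls. T and NK cell genes were also present, 8 of 10 at 1 FPKM or more, with Trbc2, a T cell receptor constant region, the highest at 8.93 ± 0.465 FPKM in IL-17 libraries and 6.56 ± 0.658 FPKM in controls. Of 8 B cell genes 2 reached 1 FPKM, and of 6 Kupffer cell genes 0.

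Scavenger and surface receptors of mature macrophages were low. Msr1, the class A scavenger receptor (chromosome 8, 39581685 to 39642673, minus strand), was the highest, at 2.37, 2.48 and 2.35 FPKM in IL-17 libraries, against 1.96, 1.90 and 1.89 FPKM in controls, with no overlap. Adgre1, the F4/80 antigen, was at 0.923, 0.767 and 0.777 FPKM in IL-17 libraries and 0.791, 0.732 and 0.647 FPKM in controls. Marco, a scavenger receptor of alveolar and marginal zone macrophages, was at 0.783, 0.385 and 0.411 FPKM in IL-17 libraries and 0.779, 0.837 and 0.701 FPKM in controls; IL-17 libraries 2 and 3 were lower than the other 4. Mrc1, the mannose receptor, ran from 0.163 to 0.452 FPKM in IL-17 libraries and from 0.265 to 0.599 FPKM in controls. Cd86, a co-stimulatory ligand for T cells, did not exceed 0.0426 FPKM in IL-17 libraries or 0.0328 FPKM in controls, and was listed at 0 in control library 1.

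The microglial genes split sharply, with Tmem119 high and the other 4 near 0. Tmem119, a membrane protein that marks microglia in brain and is also known from bone-forming cells (chromosome 5, 113793729 to 113800516, minus strand), was at 20.4, 19.6 and 19.8 FPKM in IL-17 libraries, against 24.2, 24.0 and 26.5 FPKM in controls. Every IL-17 library lay below every control. Cx3cr1, the fractalkine receptor, was at 0.0908, 0.123 and 0.111 FPKM in IL-17 libraries and 0.0580, 0.0265 and 0.0561 FPKM in controls, also without overlap. These Cx3cr1 values would amount to 6.92 to 8.74 fragments in IL-17 libraries and 1.95 to 4.42 in controls, under the assumption made for the depth. The annotated span of Cx3cr1 holds Csrnp1 and Gorasp1 on the same strand, at means of 8.25 and 7.90 FPKM, so the Cx3cr1 values are uncertain. P2ry12, an ADP receptor of resting microglia, ran from 0.0116 to 0.0878 FPKM in IL-17 libraries and from 0 to 0.159 FPKM in controls. Sall1, a transcription factor of microglia, ran from 0.0195 to 0.0534 FPKM in IL-17 libraries and from 0.0109 to 0.0503 FPKM in controls. Siglech, a sialic acid-binding lectin, had a value above 0 in control library 1 alone, 0.0130 FPKM, and was listed at 0 in the other 5 libraries, IL-17 libraries included.

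Of 11 other genes typical of microglia, 5 averaged at least 1 FPKM. Cst3, the protease inhibitor cystatin C, which many cell types make, was the highest at 196.1 ± 17.5 FPKM in IL-17 libraries and 210.4 ± 29.2 FPKM in controls (SD, n = 3 each). The other 6 averaged between 0.0182 FPKM for Gpr34, a lipid receptor listed at 0 in IL-17 libraries 2 and 3, and 0.111 FPKM for Slc2a5, a fructose transporter. The promoter windows of Cd53, a leukocyte gene above 9 FPKM in every library, and of 2 microglial genes near 0, P2ry12 and Cx3cr1, are set side by side, with the motifs in capitals as above. 
Cd53 (chr3:106790100-106790399, minus strand): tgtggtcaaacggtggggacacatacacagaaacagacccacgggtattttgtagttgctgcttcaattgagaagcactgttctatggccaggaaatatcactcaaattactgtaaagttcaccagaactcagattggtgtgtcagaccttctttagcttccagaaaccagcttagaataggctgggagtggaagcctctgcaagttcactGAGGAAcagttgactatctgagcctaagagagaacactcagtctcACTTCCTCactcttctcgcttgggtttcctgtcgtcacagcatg
P2ry12 (chr3:59262936-59263235, minus strand): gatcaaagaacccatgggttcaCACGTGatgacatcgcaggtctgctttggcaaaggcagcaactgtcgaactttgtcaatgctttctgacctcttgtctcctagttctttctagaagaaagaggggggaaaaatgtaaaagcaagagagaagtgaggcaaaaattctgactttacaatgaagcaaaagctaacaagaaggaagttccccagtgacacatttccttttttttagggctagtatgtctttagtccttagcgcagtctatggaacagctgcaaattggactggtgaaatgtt
Cx3cr1 (chr9:120068247-120068546, minus strand): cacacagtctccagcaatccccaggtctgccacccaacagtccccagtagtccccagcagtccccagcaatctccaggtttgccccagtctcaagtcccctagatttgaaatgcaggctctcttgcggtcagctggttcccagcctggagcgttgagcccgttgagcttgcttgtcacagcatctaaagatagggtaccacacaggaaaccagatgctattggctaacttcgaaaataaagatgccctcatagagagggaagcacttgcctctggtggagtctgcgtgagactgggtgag
Cd53 held 2 GAGGAA matches, 1 of them within the longer form GAGGAAGT, which 3.2% of all windows hold. P2ry12 held 1 CACGTG, and Cx3cr1 held none of the motifs searched. RefSeq windows were matched for 25 of the 35 genes. GAGGAA was found for 7 of the 13 matched genes that averaged at least 1 FPKM and for 8 of the 12 below that level. CACGTG was found for Ctsd, P2ry12 and Siglech, 1 of the 13 and 2 of the 12.

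The 3 chains of C1q, the complement protein that tags debris for phagocytes, are encoded side by side on chromosome 4 (136880129 to 136898803). They were low and uneven within the control group. C1qa was at 1.13, 0.855 and 0.964 FPKM in IL-17 libraries, against 0.348, 2.23 and 1.25 FPKM in controls. C1qb was at 0.841, 0.899 and 0.709 FPKM in IL-17 libraries, against 0.203, 1.503 and 0.888 FPKM in controls. C1qc was at 0.450, 0.203 and 0.319 FPKM in IL-17 libraries, against 0.162, 1.07 and 0.351 FPKM in controls. For all 3 chains control library 2 was the highest of the 6 libraries and control library 1 the lowest. The summed level of the chains was 2.42, 1.96 and 1.99 FPKM in IL-17 libraries, against 0.714, 4.80 and 2.49 FPKM in controls. The summed level of the 6 Kupffer cell genes, which mark the macrophages of the liver, was 0.904, 0.661 and 0.661 FPKM in IL-17 libraries and 1.595, 1.89 and 0.940 FPKM in controls. That list was high in control library 2 but also in control library 1, where C1q was lowest. Its part in the C1q values was not tested.

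The 2 lysozyme genes are neighbours on chromosome 10 and encode near-identical enzymes that cut bacterial cell walls. Lyz2 (117277331 to 117282321, minus strand) is the lysozyme of myeloid cells, and Lyz1 (117287797 to 117292868, minus strand) that of Paneth cells of the gut and of some other epithelia. Their promoter windows are shown because the genes differ so much in level; capitals mark the longest run that both share, 86 bases, from position 201 to 286 of each window. 
Lyz2 (chr10:117282223-117282522, minus strand): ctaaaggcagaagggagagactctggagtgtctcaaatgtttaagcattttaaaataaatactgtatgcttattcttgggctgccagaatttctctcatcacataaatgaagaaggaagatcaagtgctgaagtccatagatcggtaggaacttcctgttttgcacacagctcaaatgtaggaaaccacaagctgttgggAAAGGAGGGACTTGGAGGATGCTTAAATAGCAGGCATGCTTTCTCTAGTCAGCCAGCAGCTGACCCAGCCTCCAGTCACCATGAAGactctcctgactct
Lyz1 (chr10:117292819-117293118, minus strand): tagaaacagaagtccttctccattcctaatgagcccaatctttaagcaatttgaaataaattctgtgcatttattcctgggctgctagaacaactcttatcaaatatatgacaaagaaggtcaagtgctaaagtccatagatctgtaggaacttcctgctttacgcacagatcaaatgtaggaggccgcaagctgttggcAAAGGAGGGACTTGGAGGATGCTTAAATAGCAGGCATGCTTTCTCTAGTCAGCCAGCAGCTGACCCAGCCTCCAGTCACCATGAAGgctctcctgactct
The windows were identical at 86.1% of aligned bases, and the transcripts at 96.0%. Lyz2 was at 74.7, 85.5 and 95.5 FPKM in IL-17 libraries and 82.2, 64.9 and 72.0 FPKM in controls, with overlapping groups. Lyz1 was at 2.36, 2.28 and 3.41 FPKM in IL-17 libraries, against 0.138, 0.127 and 1.12 FPKM in controls, with no overlap. Lyz1 amounted to 3.15%, 2.67% and 3.57% of Lyz2 in IL-17 libraries and to 0.168%, 0.197% and 1.55% in controls. How reads that match both genes were assigned was not tested.

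The question of the IL-17 comparison for these genes is whether exposure changed the macrophage transcripts of the cells. Few changes passed the test. Each gene was tested with limma on log2(FPKM + 1), on which changes of low genes come out too small, and a gene was called at an adjusted p under 0.05 by Benjamini-Hochberg over the 12953 genes with a mean of at least 0.5 FPKM. Of the 35 genes, 25 passed that filter. Lyz1 rose (the share of all tested genes called higher was 0.95%), Tmem119 fell (share called lower, 0.996%), and 23 did not pass. Over all tested genes 1.95% were called. The median log2 fold change was 0.09 over the 25 genes and 0.02 over all tested genes, and 18 of the 25 were above 0, against 55.1% of all tested genes. The groups did not overlap for 9 of the 25, 7 higher and 2 lower, against 24.2% of all tested genes.

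**Figure D3:**
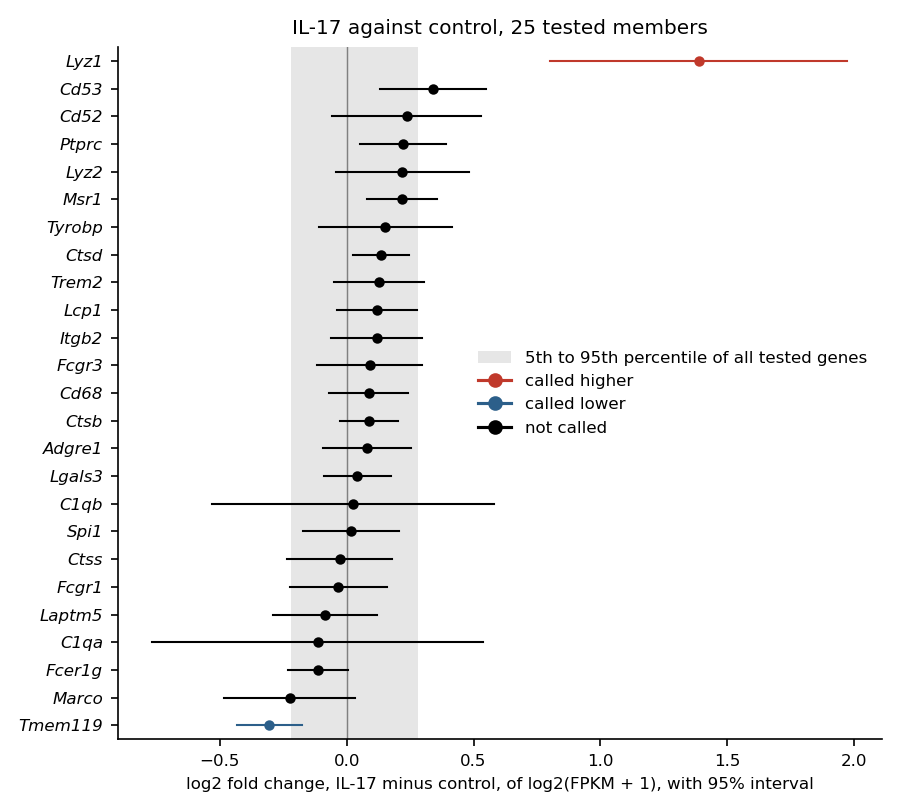
Log2 fold change, IL-17 minus control, on the log2(FPKM + 1) scale for the 25 tested genes (points) with 95% intervals (bars), called genes in red or blue and the others in black; the grey band spans the 5th to 95th percentile of all tested genes, -0.22 to 0.28. Lyz1 and Tmem119 are the called genes, and most of the others lie inside the band.

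Tmem119 averaged 20.0 ± 0.437 FPKM in IL-17 libraries and 24.9 ± 1.36 FPKM in controls (SD, n = 3 each), with a difference of -0.30 on the log2 scale (SE 0.06; 95% interval -0.43 to -0.18; limma adjusted p = 0.0416). All 3 IL-17 libraries were lower than all 3 controls. The call depended on each library: leaving out IL-17 library 1, 2 or 3 gave limma adjusted p-values of 0.0629, 0.191 and 0.121, and leaving out control library 1, 2 or 3 gave 0.0822, 0.102 and 0.143. With IL-17 library 1 and control library 3 both removed, the log2 fold change was -0.28 (limma adjusted p = 0.186); in that fit 1 of the 25 genes was called, Lyz1, against 1.24% of all tested genes. Over 17 alternatives the log2 fold change ran from -0.35 to -0.26. Of the mesenchymal genes, Acta2 and Vim fell with all 6 libraries in the fit. Acta2, smooth muscle actin, was at 97.2 ± 0.734 FPKM in IL-17 libraries and 133.4 ± 6.10 FPKM in controls (limma adjusted p = 0.00528). Vim, the intermediate filament vimentin, was at 222.9 ± 7.72 FPKM in IL-17 libraries and 274.3 ± 9.14 FPKM in controls (limma adjusted p = 0.0334). The Vim call ended when any library was left out. With IL-17 library 1 and control library 3 both removed, 0 of the 14 tested mesenchymal genes passed limma. In that fit 3 of the 14 had an unadjusted limma p under 0.05, against 1686 of all 12953 tested genes. With all libraries, of the 14 genes these 2 fell, 0 rose and 12 did not pass, with a median log2 fold change of -0.09. Every IL-17 library lay below every control for 4 of the 14, against 10.9% of all tested genes. The reverse held for 2, Thy1 and Pdgfra, against 13.3% of all tested genes. The summed level of the list was 3089, 3216 and 3300 FPKM in IL-17 libraries and 3500, 3402 and 3232 FPKM in controls. Most of that sum was S100a4, at 2340 ± 134 FPKM in IL-17 libraries and 2410 ± 182 FPKM in controls (log2 fold change -0.04). The part of the mesenchymal genes in the Tmem119 result was not tested, and fewer cells of a type cannot be told apart from less RNA per cell.

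Lyz1 averaged 2.68 ± 0.632 FPKM in IL-17 libraries and 0.461 ± 0.568 FPKM in controls (SD, n = 3 each), and its log2 fold change was 1.39 (SE 0.25; 95% interval 0.80 to 1.97; limma adjusted p = 0.0412). Under the assumption made for the depth, Lyz1 would amount to 50.4, 45.8 and 68.4 fragments in IL-17 libraries. In control libraries 1, 2 and 3 it would amount to 2.95, 2.64 and 24.7 fragments. Leaving out IL-17 library 1, 2 or 3 ended the call (limma adjusted p = 0.0629, 0.111 and 0.128), as did leaving out control library 1 or 2 (limma adjusted p = 0.133 and 0.14). Leaving out control library 3 kept it (limma adjusted p = 0.00585). With IL-17 library 1 and control library 3 both removed, the log2 fold change was 1.75 (limma adjusted p = 0.00884). Control library 3 held the highest Lyz1 level of the controls, 1.12 FPKM against 0.138 and 0.127 FPKM. Leaving it out raises the fold change and narrows the control spread, so fits without it are no independent check of the call. Over 17 alternatives the log2 fold change ran from 1.10 to 2.76, the highest with a pseudocount of 0.1, and the limma adjusted p from 0.00585 to 0.168. The call also ended under a robust prior, under TPM scaling or quantile normalization, without the filter, and when the pseudocount was 0.1 or 0.5. Several lung epithelial genes were high and low in the same libraries as Lyz1. Of the 7 tested lung genes 4 had every IL-17 library above every control, against 13.3% of all tested genes, and over all 11 lung genes 7 did. Sftpa1 was listed at 0 in control library 1, Ager in control library 2, and Sftpd, Scgb3a2, Cldn18 and Lamp3 in control libraries 1 and 2. Napsa and Scgb3a1 did not follow Lyz1. Napsa was at 4.05, 4.56 and 4.57 FPKM in IL-17 libraries and 4.86, 4.35 and 4.73 FPKM in controls. Scgb3a1 was at 0.0985 FPKM in IL-17 library 1 and 4.43 FPKM in control library 3, and was listed at 0 in the other 4 libraries. Sftpc, a surfactant protein gene, was at 29.8, 25.8 and 35.3 FPKM in IL-17 libraries and 0.331, 0.170 and 15.2 FPKM in controls, the order of libraries seen for Lyz1. With the same 2 libraries removed, 5 of the 7 tested lung genes were called higher, and 12 of the 16 tested liver genes were called lower. The part of lung transcripts in the Lyz1 result was not tested.

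**Figure D4:**
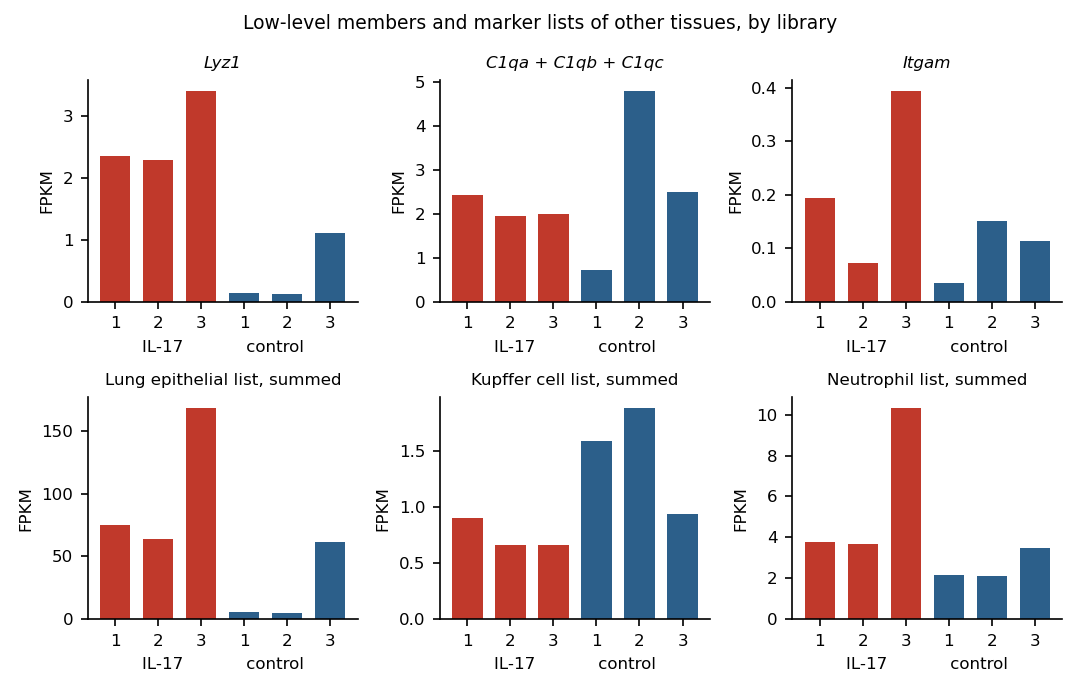
FPKM in each library (bars; IL-17 libraries red at the left, control libraries blue at the right) of Lyz1, the 3 C1q chains summed and Itgam, above the summed lung epithelial, Kupffer cell and neutrophil lists. Lyz1 and the lung list are highest in IL-17 library 3 and lowest in control libraries 1 and 2, and Itgam and the neutrophil list are both highest in IL-17 library 3.

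Of the 18 tested leukocyte and microglial genes, 2 had every IL-17 library below every control, against 10.9% of all tested genes. Another 4 had every IL-17 library above every control, against 13.3% of all tested genes, and these 4 did not pass the test. Cd53 had the largest log2 fold change of these, 0.34 (SE 0.09, 95% interval 0.13 to 0.55; limma adjusted p = 0.122), and passed without control library 1 (limma adjusted p = 0.0446) and with array weights (limma adjusted p = 0.015), within a range of 0.015 to 0.319 over the alternatives. Msr1 had 0.22 (SE 0.06; limma adjusted p = 0.125) and passed with array weights (limma adjusted p = 0.0295; range over the alternatives 0.0295 to 0.388). Ptprc had 0.22 (SE 0.07; limma adjusted p = 0.188). Among the 7 tested leukocyte genes the median log2 fold change was 0.12, with 6 above 0, Laptm5 being the exception at -0.08 (SE 0.09). Of the 29 tested genes in the list of other myeloid genes, 0 passed limma and 11 had an unadjusted p under 0.05 in limma, against 16.7% of all tested genes; their median was 0.08. Of the 8 tested T and NK cell genes 0 passed, 6 had an unadjusted limma p under 0.05, and all 8 had log2 fold changes above 0, with a median of 0.26. Over all tested genes 55.1% had a log2 fold change above 0, the share to set beside these 8 and the 6 of 7 leukocyte genes.

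The lysosomal genes had small log2 fold changes. The log2 fold change of Ctsd was 0.14 (SE 0.05, 95% interval 0.03 to 0.25; limma adjusted p = 0.213), that of Ctsb 0.09 (SE 0.05), that of Cd68 0.09 (SE 0.07) and that of Ctss -0.03 (SE 0.09, 95% interval -0.24 to 0.18). Lgals3 had 0.04 (SE 0.06) and Lyz2 0.22 (SE 0.11, 95% interval -0.04 to 0.48). Of these 6 genes 0 passed limma, with adjusted p-values from 0.213 for Ctsd to 0.904 for Ctss, and Ctsd was the 1 gene with an unadjusted limma p under 0.05. Of the 41 tested genes among the other lysosomal genes, 0 passed limma, 6 had an unadjusted limma p under 0.05, and the median log2 fold change was 0.07. Over all tested genes 16.7% had an unadjusted limma p under 0.05. For the 4 genes of the set above 100 FPKM the 95% intervals were narrow on the log2 scale. They ran from 0.03 to 0.25 for Ctsd, -0.07 to 0.24 for Cd68, -0.03 to 0.20 for Ctsb and -0.09 to 0.17 for Lgals3. Like the p-values, these intervals reflect the spread between these libraries alone.

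Among adaptors and receptors, Tyrobp had a log2 fold change of 0.15 (SE 0.11), Trem2 0.13 (SE 0.08), Fcgr3 0.09 (SE 0.09), Fcgr1 -0.03 (SE 0.08) and Fcer1g -0.11 (SE 0.05). Tyrobp and Fcer1g, which serve the same kind of signal, thus had estimates of opposite sign, with 95% intervals of -0.11 to 0.41 and -0.23 to 0.004 that overlap; the difference was not tested. C1qa had -0.11 (SE 0.28) and C1qb 0.02 (SE 0.24), and the log2 fold change of C1qa was 0.18 without control library 2 while that of C1qb was -0.26 without control library 1. Marco had -0.22 (SE 0.11; limma adjusted p = 0.356).

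The spread over the 6 libraries depended on level. For the 15 genes of the set at 5 FPKM or more, the highest library was 1.11 to 1.501 times the lowest, with a median of 1.25, and the median was 1.21 over the 6434 genes at that level. For the 9 genes between 0.1 and 1 FPKM the ratio ran from 1.43 for Adgre1 to 11.2 for Itgam, with a median of 2.75, against a median of 2.29 over 5430 genes. Itgam was highest in IL-17 library 3. The summed level of 6 neutrophil genes was 3.78, 3.70 and 10.3 FPKM in IL-17 libraries and 2.13, 2.09 and 3.47 FPKM in controls, also highest in IL-17 library 3, where S100a9, a calcium-binding protein of neutrophils, was at 5.00 FPKM. The part of neutrophil transcripts in the Itgam value was not tested.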

How the data were processed

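RNA was measured by poly(A) sequencing with dUTP-marked second strands, per the labels' protocols, in 3 IL-17 and 3 control libraries grouped by their treatment label. The authors deposited FPKM values, 1 column per library; per the submitters' processing notes, fastp, StringTie and mm10 were among the tools and builds, with no versions. Aligner, annotation release and strand setting are not given in the sources used here, which leaves levels of overlapping or near-identical genes uncertain. GENCODE vM21 (GRCm38) supplied symbols and coordinates; 26525 identifiers matched and 70 did not. No column of values was left out.

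FPKM were used as deposited, with a pseudocount of 1 on the log2 scale. Genes with a mean of at least 0.5 FPKM were tested with limma 3.58.1 (R 4.3.3; trended prior variance; group as only covariate) and adjusted by Benjamini-Hochberg. On data simulated for this comparison over 12953 genes, 16% of log2 changes of 0.3 were recovered, 58% of those of 0.5 and 100% of those of 1, and 8 of 145 calls were false. Simulated errors were independent between genes. The rates may therefore not hold for transcripts that rise and fall together between libraries. Alternatives changed the pseudocount, filter, scaling, variance model and libraries. Transcripts and promoter windows were aligned with Biopython 1.88.

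The 35 genes and all other lists were chosen with earlier results of these data known. All 35 genes are accounted for. From the other lists, called genes with the smallest p or those of highest level are named. Csf1r, Coro1a, Gpr34, Slc2a5, Sftpa1, Sftpc, Sftpd, Scgb3a1, Scgb3a2, Cldn18, Napsa, Ager, Lamp3, S100a8, S100a9, Retnlg, Camp, Elane, Ngp, Thy1 and Pdgfra were chosen after their values were seen.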

Additional observations from a re-analysis of the deposited data

How the results depend on the processing

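Of 421 comparisons of a tested gene of the set with an alternative, 382 kept direction and side of the threshold, most of them for genes that were not called; the 2 called genes lost the call in 21, Tmem119 keeping it in 7 of 17 alternatives and Lyz1 in 6 of 17. The count of genes of the set called, 2 of 25, became 1 (Tmem119) with a pseudocount of 0.1 or 0.5, quantile normalization or a robust prior, 0 with no filter or TPM scaling, 4 with array weights (Cd53, Lyz1, Msr1 and Tmem119), and 0 to 1 when a library was left out; it was 1 (Lyz1) with IL-17 library 1 and control library 3 both removed. With TMM factors or a filter at 1 FPKM it was 2. Over all tested genes the 252 calls became 135 with no filter, 1015 with array weights, 160 with both of those removed, and 117 to 251 when a library was left out. For the other lists the 2 calls became 1 with no filter, quantile normalization or TPM scaling (Acta2), 13 with array weights, and 1 to 14 when a library was left out. With IL-17 library 1 and control library 3 both removed there were 19 calls, neither Acta2 nor Vim among them. The 5 higher calls were all lung epithelial genes. Of the 14 lower calls, 12 were in the liver list, and the others were Apoe and Fabp1. The 2 libraries were set apart by the lung and liver sums, so these calls are no independent result. The count of 21 genes at 1 FPKM or more ran from 20, without control library 1 or 2, to 27 with TPM scaling. FPKM summed to 365534 to 383093 per library, below the total that TPM is scaled to, so TPM scaling raised every value. The cut at 1 was therefore effectively lower there, as was the pseudocount of 1 in the TPM fit. At 0.5 FPKM or more there were 25 genes, and at 5 FPKM or more 15.

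No pairing by replicate number was seen. Deviations of same-numbered libraries correlated at -0.144, 0.0801 and 0.206, and those of different-numbered libraries at -0.312 to 0.253. With 3 libraries per group so few correlations cannot exclude a pairing. With the replicate block the calls were 80 over all genes, 1 in the set and 1 in the other lists (Sftpa1), and Lyz1 kept its call while Tmem119 did not.

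Among genes that were not called, 7 changed sign in 15 comparisons; the cause was not tested. With quantile normalization Lgals3 was at -0.012 and C1qb at -0.0097. With array weights Spi1 was at -0.044, Fcgr3 at -0.020 and C1qb at -0.054. With IL-17 library 1 and control library 3 both removed, Ctss was at 0.014 and Spi1 at -0.023. When a library was left out, Ctss ran from -0.092 to 0.044, Spi1 from -0.063 to 0.072, C1qa from -0.45 to 0.18, Fcgr1 from -0.070 to 0.030 and C1qb from -0.26 to 0.27. The 10 genes of the set under 0.5 FPKM were left out of the test by its filter.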
